A study of Mus musculus with 108 samples.

Results

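The loci of 10 genes that encode regulators of early mesoderm and of the heart were followed through a genome-wide enhancer reporter screen. The genes were Hand1, Hand2, Mesp1, Gata4, Gata6, Tbx20, Eomes, Mixl1, Isl1 and Pdgfra, chosen by name from 21728 protein-coding genes. A locus was the gene body with 100 kb on each side, placed by GENCODE on mm10, and every recovered or cloned fragment that overlapped it was a member of it. In the screen, open chromatin was cut by the Tn5 transposase in cells of 5 stages, and the pieces were cloned into the vector pDONR 221 and from there into the reporter vector pSKB, upstream of an HSP68 minimal promoter and a Venus-YFP gene. Each reporter was placed in the Hprt gene of HM-1, a line of mouse ES cells that lacks functional Hprt of its own. The cells were then taken as ES cells (ES), FLK1-positive hemangioblasts (HB), early and late hemogenic endothelium (HE1 and HE2) and blood progenitors (HP). Flow sorting used 4 YFP gates in replicates 1 to 4 (Negative, Low, Medium, High) and 3 in replicate 5 (Negative, Low, Medium/High). This gave 95 sorted libraries, beside 10 plasmid lists, with 1 for each vector and stage, and 3 control lists from HM-1 cells without a reporter. All groups shared the same HM-1 background and integration site, and no gene of the 10 was altered. Fragments are genomic DNA, so they carry no expression value of these genes, and the identity of the sorted cells could not be checked against marker genes.

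Gastrulating embryos form mesoderm as cells pass through the primitive streak under the control of T-box and homeobox factors. From this mesoderm arise both the heart and the blood and endothelial lineages, and FLK1-positive cells in culture stand near the point where they part. The GATA, HAND, T-box and LIM-homeobox factors named here act together in heart progenitors. A distal enhancer is a piece of DNA that raises transcription from a promoter at a distance, and the screen reads whether a piece alone can do so at Hprt.

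For the distal site of a locus that was recovered in the most positive sets, 1 fragment is shown as an example for 6 loci. It is the fragment of at most 300 bases that was listed in the most libraries. Each gave only part of the listings of its site: 16 of 113 at Hand2, 11 of 60 at Gata4 and 8 of 39 at Hand1. For Eomes it was 5 of 31, for Tbx20 5 of 24 and for Pdgfra 3 of 29. The recovery of these sites thus also rests on other fragments. They were read from mm10 on the forward strand, in lower case, and capitals mark the letters AGATAA, searched for zinc finger factors of the Gata family, CANNTG, the E-box of bHLH factors such as Hand and Mesp proteins, or AGGTGT, searched for T-box factors, on either strand. The Hand2 fragment, chr8:57353715-57353816, was listed in 16 libraries, the Gata4 fragment, chr14:63255728-63255983, in 11, and the Hand1 fragment, chr11:57868892-57869139, in 8. The Eomes fragment, chr9:118489603-118489883, and the Tbx20 fragment, chr9:24781336-24781509, were listed in 5 libraries each, and the Pdgfra fragment, chr5:75210336-75210563, in 3.
Hand2: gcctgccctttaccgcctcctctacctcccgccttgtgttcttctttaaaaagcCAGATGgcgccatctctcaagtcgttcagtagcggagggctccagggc
Gata4: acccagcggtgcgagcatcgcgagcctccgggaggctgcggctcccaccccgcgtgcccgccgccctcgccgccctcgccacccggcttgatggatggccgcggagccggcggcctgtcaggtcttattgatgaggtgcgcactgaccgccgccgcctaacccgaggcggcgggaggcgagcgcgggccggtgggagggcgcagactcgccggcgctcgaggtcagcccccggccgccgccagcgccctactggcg
Hand1: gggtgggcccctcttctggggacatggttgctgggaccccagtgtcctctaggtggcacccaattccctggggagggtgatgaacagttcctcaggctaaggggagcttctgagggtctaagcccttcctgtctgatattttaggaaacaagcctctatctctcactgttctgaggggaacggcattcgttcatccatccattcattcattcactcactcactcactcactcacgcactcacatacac
Eomes: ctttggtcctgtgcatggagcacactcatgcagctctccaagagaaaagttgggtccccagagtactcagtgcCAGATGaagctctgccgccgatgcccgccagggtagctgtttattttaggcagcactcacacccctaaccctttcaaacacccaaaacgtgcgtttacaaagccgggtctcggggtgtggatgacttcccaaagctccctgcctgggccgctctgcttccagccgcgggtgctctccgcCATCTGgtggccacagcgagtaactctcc
Tbx20: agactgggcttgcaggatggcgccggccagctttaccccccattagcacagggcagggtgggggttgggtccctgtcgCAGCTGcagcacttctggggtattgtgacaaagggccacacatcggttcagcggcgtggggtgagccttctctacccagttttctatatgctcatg
Pdgfra: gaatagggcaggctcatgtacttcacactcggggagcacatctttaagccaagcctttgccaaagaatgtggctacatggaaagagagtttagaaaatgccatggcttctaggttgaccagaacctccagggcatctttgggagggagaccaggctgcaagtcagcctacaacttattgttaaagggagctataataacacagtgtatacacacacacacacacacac
The Hand2, Eomes and Tbx20 fragments held E-box letters, 1, 2 and 1 time, and none of the 6 held the GATA or T-box letters searched. The Hand2 fragment was listed at HB, HE1, HE2 and HP but not at ES, in 14 positive and 2 Negative libraries. The Gata4 and Hand1 fragments were listed only at ES and HB, in 8 positive and 3 Negative and in 6 positive and 2 Negative libraries. All 6 were identical to a cloned plasmid fragment, and each came from 2 or 3 of the replicates.

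The lists hold each fragment once, with no read number, so that a value below is a number of distinct fragments. A positive set joins the Low, Medium, High and Medium/High lists of 1 stage and replicate, which gave 25 positive and 25 Negative sets. Libraries held 18633 to 131032 fragments in replicate 1, 15624 to 113874 in replicate 2, 504 to 20710 in replicate 3, 505 to 11550 in replicate 4 and 646 to 2986 in replicate 5, so most fragments of a locus come from replicates 1 and 2. The labels do not say whether the replicates are separate cultures, and p-values then measure only the spread between these samples. Some HE1 libraries shared most of their fragments. HE1 Negative replicate 1 and HE1 Medium replicate 2 had 89442 fragments in common (68.3% and 78.5% of the lists), among them 162 of the 227 and 219 fragments of the 10 loci. HE1 Negative replicate 3 and HE1 Low replicate 4 had 5683 in common (83.0% and 49.2%), among them 16 of the 19 and 39. Tests without these 4 libraries are given in the closing section.

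The 10 loci together gave 3789 listings of 2054 distinct fragments, 0.175% of the 1176424 distinct fragments of the screen. Of the 2054, 1596 (77.7%) were identical to a plasmid fragment, and 6 were also listed in a control without a reporter. Overlapping fragments merged into 133 distal sites, more than 1.5 kb from a transcription start, and 27 promoter sites. Gata4 had 438 distinct fragments in 20 distal and 4 promoter sites, Hand1 had 326 in 21 and 2, Mixl1 had 305 in 12 and 5, and Mesp1 had 260 in 22 and 5. Gata6 had 220 distinct fragments in 10 distal sites and 1 promoter site, Pdgfra 172 in 11 and 1, Hand2 117 in 8 and 3, Eomes 102 in 19 and 3, Tbx20 67 in 7 and 2, and Isl1 47 in 3 and 1. The loci of Hand2, Gata6 and Isl1 held no other protein-coding gene, whereas that of Mesp1 held 8, its paralogue Mesp2 among them. Per length, the number of distal sites ranged from 1.42 per 100 kb at Isl1, the 26.5th percentile of all loci, to 10.9 per 100 kb at Mesp1, the 97.6th percentile.

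Of the 133 distal sites, 77 were intergenic, 24 lay in introns of coding genes and 9 in coding exons, and for 84 the nearest transcription start was that of the named gene. A positive set held a fragment of 123 sites, 76 of these 123 were also listed in a Negative set, and 10 sites were listed in Negative sets alone. Only 18 sites were found in 10 or more of the 25 positive sets, 45 in 1 of them, and 23 at all 5 stages. The matching counts over all 58902 distal sites of the screen are not given here. These numbers thus describe the 10 loci and do not set them apart from other loci. Positive sets are larger than Negative ones, since they join up to 3 libraries, so the numbers of sets are not a measure of activity. Numbers of fragments by stage are given below as counted, and pooled positive sets held 239579 listed fragments at ES, 288609 at HB, 446550 at HE1, 353227 at HE2 and 269625 at HP, against 88657, 97092, 181312, 75505 and 81858 in Negative sets. A stage can thus have more fragments of a site because more were listed. The study also kept only fragments in open chromatin, and the sources used here do not say whether each stage was filtered by its own peaks. Bounds given below where no fragment was listed cover counting alone, and the part of this filter was not tested.

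**Figure D1:**
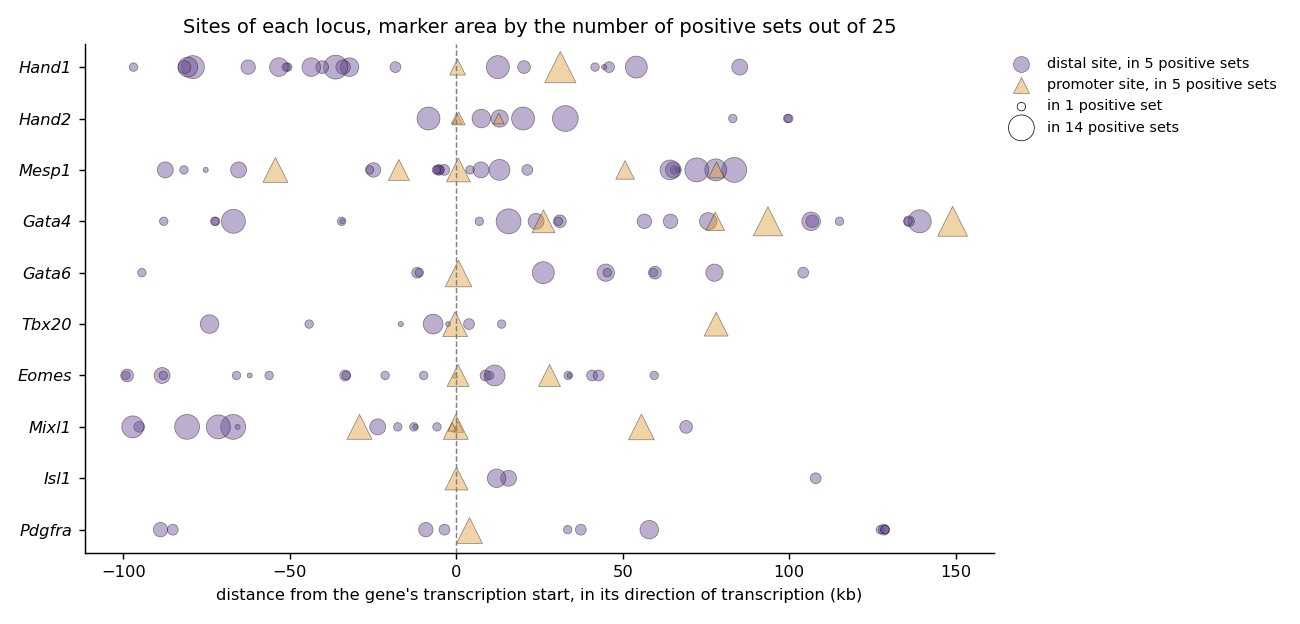
Distal sites (circles) and promoter sites (triangles) of each locus by their distance from the gene's transcription start in kb, with upstream to the left, and marker area by the number of the 25 positive sets that listed a fragment of the site. The Hand2 site at 32.8 kb downstream was listed in 14 positive sets, the highest number among the 133 distal sites.

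The bHLH factors Hand1 and Hand2 act in the heart ventricles, and Mesp1, a bHLH factor too, marks the first cardiac mesoderm. The Hand1 distal site with the widest recovery, chr11:57868723-57869332, lay 36.2 kb upstream of the gene and was listed in 12 positive and 6 Negative sets. Its positive sets held 6 fragments at ES, 9 at HB, 3 at HE1, 3 at HE2 and 7 at HP. The Hand1 promoter site, chr11:57831619-57833178, over the start and the coding sequence, was different: 0 fragments at ES, 14 at HB, 16 at HE1, 3 at HE2 and 0 at HP in positive sets. Per 10000 listed fragments HB was the highest, at 0.485, against 0.358 at HE1 and 0.0849 at HE2. At HB these came as 6 and 8 fragments in replicates 1 and 2 and none in the other replicates, and the 0 at ES allows a share of up to 0.125 per 10000 listed fragments (3 fragments over the pooled ES sets). The Hand1 promoter was also listed in Negative sets, with 2 fragments at HB, 8 at HE1 and 3 at HE2, and none at ES or HP. Of its 28 distinct fragments, 2 were also listed in a control without a reporter. In the plasmid lists from ES to HP it stood at 14.8, 30.2, 20.7, 11.8 and 9.85 FPM, distinct fragments per 1000000 listed fragments, in pDONR and at 19.7, 25.2, 24.9, 13.3 and 5.41 in pSKB, so that its ES plasmid level was above that at HE2. The parts of the cloned material and of the open chromatin filter in this series were not tested.

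The Hand2 distal site, chr8:57353450-57354100, lay 32.8 kb downstream in an exon of the non-coding gene 5033428I22Rik and was listed in 14 positive and 8 Negative sets, with 12, 16, 21, 18 and 19 fragments in positive sets from ES to HP. It therefore had fragments at every stage, with no stage at 0. The Hand2 promoter, chr8:57320941-57321355, was recovered at HE1 alone, with 5 fragments in 2 positive sets, which is 0.112 per 10000. The absence at the other stages allows shares of up to 0.0849 (HE2), 0.104 (HB), 0.111 (HP) and 0.125 (ES) per 10000. Only the ES bound lies above the HE1 level, which itself rests on 5 fragments. Whether HE1 differed from the other stages was not tested. At the Mesp1 locus the site recovered in the most positive sets, 13 with 10 Negative sets, lay in a coding exon of the neighbour Kif7, 83.5 kb downstream (chr7:79709855-79710643), and its nearest start was that of Kif7, which encodes a kinesin of the hedgehog pathway. The Mesp1 promoter, chr7:79792712-79793530, was listed in 12 positive and 7 Negative sets, with 9, 5, 7, 10 and 5 fragments in positive sets from ES to HP.

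The zinc finger factors Gata4 and Gata6 act in endoderm and in heart progenitors. The Gata4 site chr14:63255525-63256389, in an intron 15.7 kb downstream of the start, was listed in 13 positive and 6 Negative sets and had 5, 9, 12, 11 and 10 fragments in positive sets from ES to HP. Gata4 had no promoter site within 1.5 kb of its outermost start, and the site nearest to another of its transcript starts, chr14:63244838-63246108, is given instead, outside the rule. That inner promoter had 0 fragments at ES and 14, 26, 16 and 11 at HB, HE1, HE2 and HP in positive sets, with 0, 2, 10, 6 and 6 in Negative sets. In the pDONR lists it rose from 9.99 FPM at ES (95% Wilson interval 7.69 to 13.0, 56 fragments) to 32.7 at HB (28.5 to 37.6, 203 fragments).

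The Gata6 site chr18:11077860-11078608, in an intron 26.2 kb downstream of the start, had no fragment in any ES set, positive or Negative, and 1 of its fragments was also listed in a control without a reporter. Its positive sets held 15 fragments at HB, 19 at HE1, 28 at HE2 and 13 at HP, which is 0.520, 0.425, 0.793 and 0.482 per 10000 listed fragments. By replicate the HB values were 4, 9, 2, 0 and 0, and the HE2 values 17, 11, 0, 0 and 0. The site was rare in the ES plasmid lists too, with 8 fragments (1.43 FPM, 0.723 to 2.82) in pDONR and 1 (0.597, 0.105 to 3.38) in pSKB, against 77 (12.4, 9.94 to 15.5) and 26 (13.4, 9.13 to 19.6) at HB. The Gata6 promoter, chr18:11051891-11053041, had 136 distinct fragments, the highest number of the 20 sites named, in 15 positive and 12 Negative sets. Its positive sets held 11, 31, 52, 29 and 21 fragments from ES to HP, and its Negative sets 10, 23, 22, 8 and 4. Per 10000 listed fragments these were 0.459, 1.07, 1.16, 0.821 and 0.779 in positive sets and 1.13, 2.37, 1.21, 1.06 and 0.489 in Negative sets. Negative sets were thus higher at each stage but HP. The 136 fragments formed 81 groups when those with starts and ends within 5 bp were joined, and these shares count each fragment.

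Among the T-box factors, Eomes acts in the primitive streak and Tbx20 in the chambers and valves of the heart. The Eomes site chr9:118489429-118490112, 11.6 kb downstream of the start, was listed in 9 positive and 6 Negative sets with 2, 7, 3, 4 and 5 fragments in positive sets from ES to HP. The Eomes promoter, chr9:118478202-118479373, was found in no HB set, positive or Negative, while positive sets of the other stages held 7, 14, 8 and 8 fragments at ES, HE1, HE2 and HP. In the HB plasmid lists it stood at 18.7 FPM in pDONR and 20.6 in pSKB. The 0 fragments in HB positive sets allow up to 0.104 per 10000 by counting alone. The parts of the cloned material and of the open chromatin filter in this were not tested. The Tbx20 site chr9:24780941-24781509, 6.9 kb upstream in an intron of the non-coding gene Gm29824, had 0, 2, 7, 5 and 3 fragments in positive sets, and in the pDONR lists it stood at 4.10 FPM at ES, 11.9 at HB and between 4.32 and 4.70 later. The Tbx20 promoter, chr9:24774456-24774813, was listed in 13 positive and 5 Negative sets.

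Mixl1 is a homeobox factor of the primitive streak, and Isl1, a LIM-homeobox factor, marks the second heart field. The Mixl1 promoter, chr1:180696617-180697698, was listed in 13 positive and 4 Negative sets, with 6, 10, 3, 4 and 4 fragments in positive sets from ES to HP. In the plasmid lists it peaked at HB, with 11.8, 40.5, 7.28, 7.10 and 8.53 FPM in pDONR and 13.7, 43.7, 9.28, 8.45 and 7.73 in pSKB. The distal site of the Mixl1 locus recovered in the most positive sets, 13 with 11 Negative sets, lay 80.8 kb upstream (chr1:180777356-180778384) and nearer to the start of the histone gene H3f3a, and 2 of its fragments were also listed in a control. The Isl1 locus was sparse, with 3 distal sites, and the one at 12.1 kb downstream, chr13:116297178-116297913, was listed in 7 positive and 2 Negative sets. The Isl1 promoter, chr13:116309417-116310226, had 6, 5, 12, 8 and 3 fragments in positive sets. No fragment of the Isl1 locus was found in any HB Negative set, which allows up to 0.309 per 10000, and with fragments in 3 of the 10 HB sets the locus was under the minimum of 4 sets, so its difference at HB was not tested.

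Pdgfra encodes a receptor tyrosine kinase for platelet-derived growth factor that is carried by paraxial and cardiac mesoderm. Its distal site chr5:75210019-75210567, 58.0 kb downstream and intergenic, was listed in 7 positive and 4 Negative sets, and 16 of the fragments in positive sets were from HE1, against 1, 0, 2 and 3 at ES, HB, HE2 and HP. Negative sets held 2, 0, 4, 0 and 1 from ES to HP. By replicate the HE1 positive values were 3, 8, 5, 0 and 0. The 17 distinct fragments of the site formed 11 groups when those with starts and ends within 5 bp were joined. In the HB plasmid lists the site was nearly missing, at 0.323 FPM in pDONR and 0 fragments in pSKB. No promoter site lay within 1.5 kb of the outermost start of Pdgfra, and the site at an inner start, chr5:75155749-75156825, is again given outside the rule. It had 128 distinct fragments in 14 positive and 11 Negative sets, with 9, 23, 50, 19 and 46 fragments in positive sets from ES to HP.

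The cloned material itself differed by stage at these loci. From ES to HB the share of plasmid fragments rose at each of the 10 loci and in both vectors, by 1.199 to 2.37 times in pDONR (median 1.43) and 1.16 to 2.77 times in pSKB (median 1.41). Over 21126 loci the median ratio was 0.996 and 0.998, with 49.0% and 49.6% of loci above 1. The 10 ratios lay at or above the 87.4th percentile of all loci in pDONR and the 81.1st in pSKB. From HB to HE1 none of the 10 loci rose, with ratios of 0.577 to 0.877 and 0.579 to 0.868. There is 1 list per vector and stage and the vectors of a stage share the same tagmented DNA, so this is a description with no test and the vectors are not replicates.

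Gata6 moved most, from 423 of 5607210 fragments at ES (75.4 FPM, 95% Wilson interval 68.6 to 83.0) to 1109 of 6199847 at HB (179 FPM, 169 to 190) in pDONR. In pSKB it went from 115 fragments (68.6 FPM, 57.2 to 82.4) to 370 (190 FPM, 172 to 211). The intervals cover counting error only, here and below, since fragments amplified by PCR are not independent molecules. Gata4 went from 231 to 385 FPM in pDONR, Mixl1 from 210 to 333, Mesp1 from 237 to 354 and Isl1 from 50.5 to 73.9. Hand1, at 287 and 345 FPM, and Tbx20, at 115 and 139, moved least in pDONR. Counted in reads instead of fragments, all 10 loci were again above 1 in pDONR, whereas in pSKB Hand2 (0.833) and Tbx20 (0.829) fell below 1. From HB to HE1 all 10 read ratios were below 1 in pDONR, whereas in pSKB Tbx20 (1.068) and Hand2 (1.003) were above 1.

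**Figure D2:**
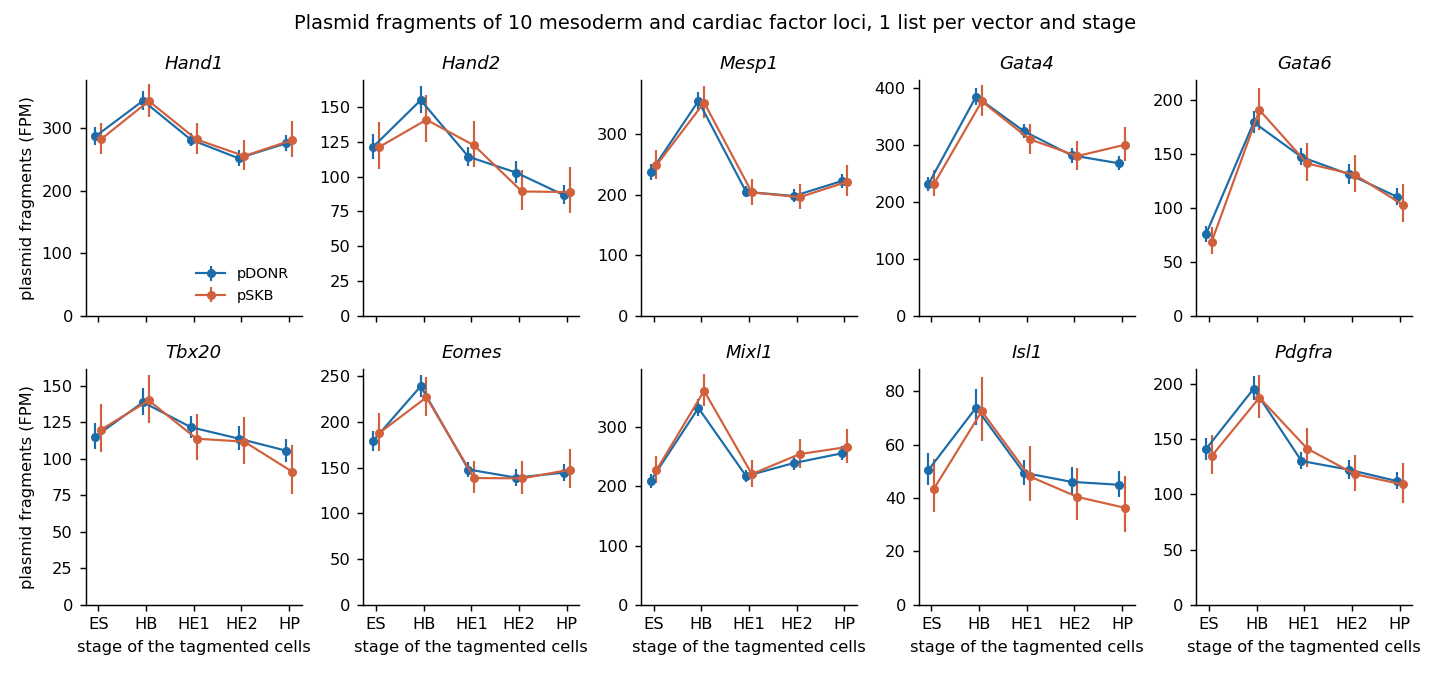
Distinct plasmid fragments of each locus in FPM by the stage whose cells were tagmented, for the pDONR (blue) and pSKB (orange) lists, with bars for 95% Wilson intervals and 1 list per point. HB was the highest of the 5 stages at each of the 10 loci in both vectors.

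Of 40 other genes of mesoderm and heart, among them T, Tbx6, Nkx2-5, Mef2c, Kdr and Bmp4, 35 rose from ES to HB in pDONR (median 1.26) and 36 in pSKB (median 1.28). From HB to HE1, 4 and 6 of the 40 rose. The 40 include Mesp2, which lies within the Mesp1 locus, so the fragments of these loci partly coincide. From HE1 to HE2, Mixl1 rose (1.101 and 1.153) and the other 9 of the 10 loci fell in both vectors. The 10 loci had medians of 0.934 in pDONR and 0.916 in pSKB for this step, and of 0.963 and 1.02 from HE2 to HP. The 10 genes and the 40 were listed with earlier results of these data known, and neither count was tested.

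In the sorted positive sets the direction from ES to HB depended at 3 loci on how replicates were joined, and no member passed the test with replicates at equal weight. Over pooled positive sets, in which replicates 1 and 2 hold most fragments, the share of a locus at HB over that at ES was 3.13 for Gata6, 2.04 for Pdgfra, 1.32 for Hand2, 1.27 for Hand1, 1.24 for Gata4, 1.18 for Mixl1 and 1.14 for Eomes, but 0.743 for Tbx20, 0.738 for Isl1 and 0.686 for Mesp1. With the 5 replicates at equal weight, 4 of the 10 loci had a fitted step above 0 (Gata4, Gata6, Mixl1 and Pdgfra), beside 50.9% of all loci, and Hand1 (-0.02), Hand2 (-0.23) and Eomes (-0.23) lay below 0 on the log2 scale. The Tbx20, Isl1 and Mesp1 loci had a lower sorted share at HB by either measure, with fitted steps of -0.17, -0.26 and -0.79. Their plasmid ratios were 1.204, 1.464 and 1.496 in pDONR. The sources used here do not give how the plasmid material of the 5 stages was joined before it was brought into the cells. The part of the cloned material in the sorted values was not tested.

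**Figure D3:**
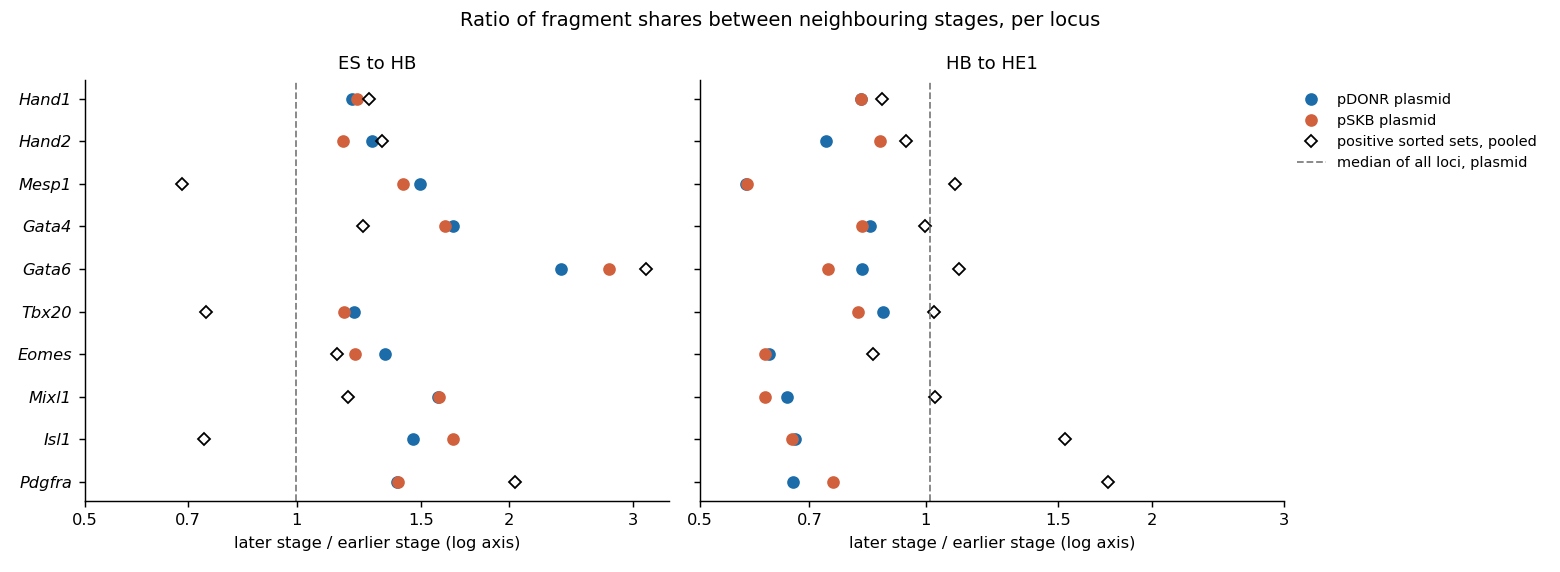
Ratio of the fragment share of each locus at the later stage to that at the earlier stage, on a log axis, for pDONR and pSKB plasmid lists (filled circles) and for positive sorted sets pooled over replicates (open diamonds), with a dashed line at the plasmid median of all loci. All plasmid ratios lie above 1 from ES to HB and below 1 from HB to HE1, while 3 loci have sorted ratios below 1 from ES to HB.

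Chromosome 11, which carries Hand1, had the highest density of plasmid fragments of 20 chromosomes, with 30340 per Mb in pDONR and 7560 in pSKB, and also of sorted fragments, with 1189 per Mb. It ranked second in protein-coding genes per Mb. The Hand1 locus had 2.16 times the plasmid density of the median locus (80.4th percentile), but 0.909 times the median of the 1637 loci of its own chromosome (44.7th percentile). Against its own chromosome Hand1 thus lay near the middle, whereas Gata4 and Mixl1 lay at 2.49 and 2.25 times the median of theirs. Isl1 was lowest by either measure, at 0.375 and 0.509.

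**Figure D4:**
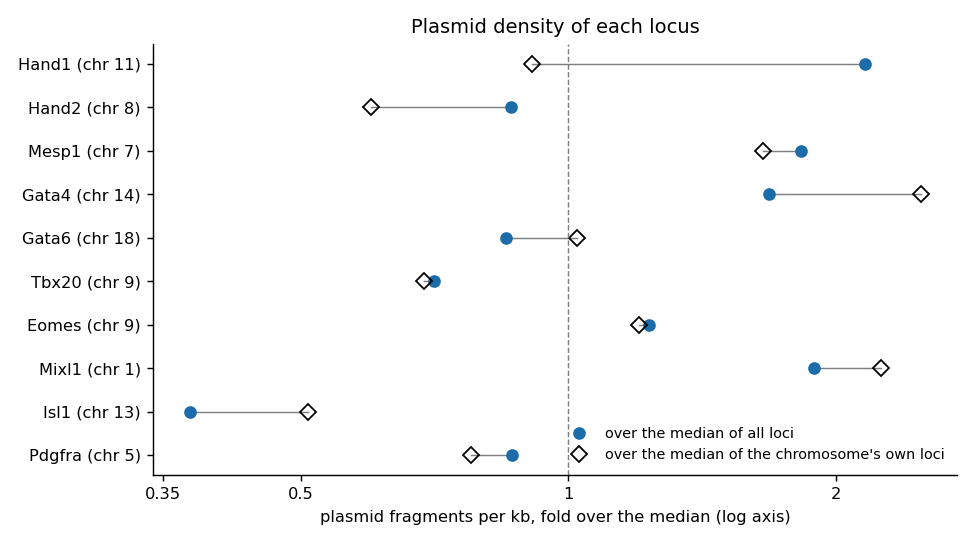
Plasmid fragments per kb of each locus as a fold over the median of all loci (blue circles) and over the median of the loci on the same chromosome (open diamonds), on a log axis. Hand1 moves from 2.16 to 0.909, the largest shift of the 10.

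The sorted shares were compared by limma on log2 of fragments per 10000 with 1 added, over all loci at once and with Benjamini-Hochberg adjustment at 0.05. With all replicates at equal weight, no member was called in any of 12 comparisons. Of all loci tested, 0% were called for positive against Negative sets over all stages (0 of 18656) or at any single stage, for high (Medium and High) against low gates, for HB against the other stages and for the steps from ES to HB, HB to HE1 and HE1 to HE2. From HE2 to HP, 4 of 18957 were called (0.0211%), all lower and none a member. Over 119 pairs of member and comparison, 6 (5.04%) had an unadjusted p under 0.05, beside 3.11% of the tests of all loci in these comparisons, and the lowest adjusted p was 0.725. The 40 other mesoderm and heart genes had no call in either direction in the 12 comparisons.

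The lowest adjusted p was that of Gata4 for positive against Negative sets over all stages, where positive sets were higher by 0.66 (SE 0.31, n = 25 and 25, adjusted p = 0.725 by limma). All loci tested had a median difference of 0.15, and 77.0% of them were above 0. The locus also holds Ctsb, Fdft1 and Neil2. In the fit over merged sites the inner Gata4 promoter differed by -0.02 (SE 0.14) and the named intron site by 0.18 (SE 0.08). Another promoter site of the locus differed by 0.63 (SE 0.21, adjusted p = 0.942 by limma). In ES the 5 positive sets of Gata4 held 3.30, 2.91, 3.09, 3.89 and 4.59 fragments per 10000 and the Negative sets 3.43, 3.18, 3.21, 0 and 0, so the replicates with many fragments overlapped. At HB, the positive sets held 3.53, 3.61, 5.09, 8.51 and 5.42 and the Negative sets 3.20, 3.34, 1.95, 0 and 7.02. In ES, positive sets were thus below Negative sets in replicates 1 to 3 and above them in replicates 4 and 5, whose Negative sets held no fragment, and at HB they were above in 4 of 5 replicates.

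Hand1 at HB was the only pair of member and stage in which all 5 replicates differed the same way. Its positive sets held 3.45, 2.87, 3.48, 3.40 and 5.42 fragments per 10000 and its Negative sets 3.63, 3.81, 5.86, 11.5 and 7.02. Negative sets were thus higher in 5 of 5 replicates, although the groups overlapped, and the difference of -0.56 (SE 0.62) had an adjusted p of 0.999 by limma. Of the 39 fragments in these Negative sets, 17 and 16 came from replicates 1 and 2, and the positive set of replicate 5 held 1 fragment. The locus also holds Galnt10 and Sap30l. At HB the Hand1 promoter went the other way, with pooled shares of 0.485 per 10000 in positive and 0.206 in Negative sets. The named distal site did too, at 0.312 and 0.206, and each gave only 2 of the 39 Negative fragments. How many pairs of member and stage would differ all the same way by chance was not tested. High gates were above low gates by 0.53 (SE 0.23) at Pdgfra and by 0.35 (SE 0.15) at Eomes, with unadjusted p of 0.0206 and 0.0232 and an adjusted p of 0.999 for each by limma. From HE1 to HE2, Gata4 differed by -1.21 (SE 0.54, unadjusted p = 0.0315) and Hand1 by -1.15 (SE 0.56, unadjusted p = 0.0468), each with an adjusted p of 1 by limma. With distal fragments only, the Gata4 step was 0.33 in the other direction.

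At the Gata6 locus the call from ES to HB differed with the weight given to each replicate. Its ES positive sets held 5, 2, 6, 0 and 0 fragments in replicates 1 to 5, which is 0.501, 0.194, 2.06, 0 and 0 per 10000. Its HB positive sets held 20, 21, 8, 0 and 0, which is 1.64, 1.72, 2.14, 0 and 0 per 10000. Replicates 1 and 2 were thus higher at HB, replicate 3 was nearly equal, and replicates 4 and 5 had no fragment at either stage. With all replicates at equal weight the step was 0.41 (SE 0.53, adjusted p = 1 by limma).

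Weighted by limma's array weights, the step from ES to HB at Gata6 was 0.92 (SE 0.19, adjusted p = 0.000196), with 364 of 18957 loci called higher (1.92%). In replicates 1 and 2 alone it was 1.00 (SE 0.22, adjusted p = 0.0148 by limma), with 190 of 19426 loci called higher (0.978%). Part of the fragments of this locus differed from each other by a few bases only. With fragments whose starts and ends both lay within 5 bp counted once, the step was 0.75 (adjusted p = 0.00151 by limma, with 1.85% of loci called higher) with array weights and 0.80 (adjusted p = 0.0241 by limma, with 1.01% called higher) in replicates 1 and 2. Negative sets were also higher at HB, going from 2 and 8 fragments at ES (0.858 and 1.82 per 10000) to 10 and 15 at HB (2.13 and 3.58 per 10000) in replicates 1 and 2. With near-identical fragments counted once, per 10000 listed fragments, the Negative sets went from 0.858 and 0.681 to 1.71 and 1.19 and the positive sets from 0.501 and 0.194 to 1.15 and 1.48, so that at HB the Negative set was the higher in replicate 1 and the lower in replicate 2. The 15 Negative fragments of replicate 2 at HB formed 5 such groups. The plasmid share of Gata6 rose over the same step, and whether the difference in positive sets exceeded that in Negative sets or in the plasmid was not tested.

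Pdgfra showed a second such case from HE2 to HP. Its positive sets held 17, 12, 3, 0 and 0 fragments at HE2 (0.838, 0.926, 1.80, 0 and 0 per 10000) and 35, 18, 0, 0 and 0 at HP (1.81, 2.70, 0, 0 and 0 per 10000). The step was 0.01 (SE 0.51, adjusted p = 1.00 by limma) over all replicates, as replicate 3 moved against replicates 1 and 2. It was 0.65 (SE 0.17, adjusted p = 0.0139) with array weights, where 0.438% of loci were called higher, and 0.78 (SE 0.18, adjusted p = 0.0321) in replicates 1 and 2 alone, where 0.211% were called higher, both by limma. With near-identical fragments counted once these calls were lost, at 0.36 (adjusted p = 0.305 by limma) and 0.49 (adjusted p = 0.253 by limma). The Pdgfra promoter held 46 of the 53 fragments of the HP positive sets.

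**Figure D5:**
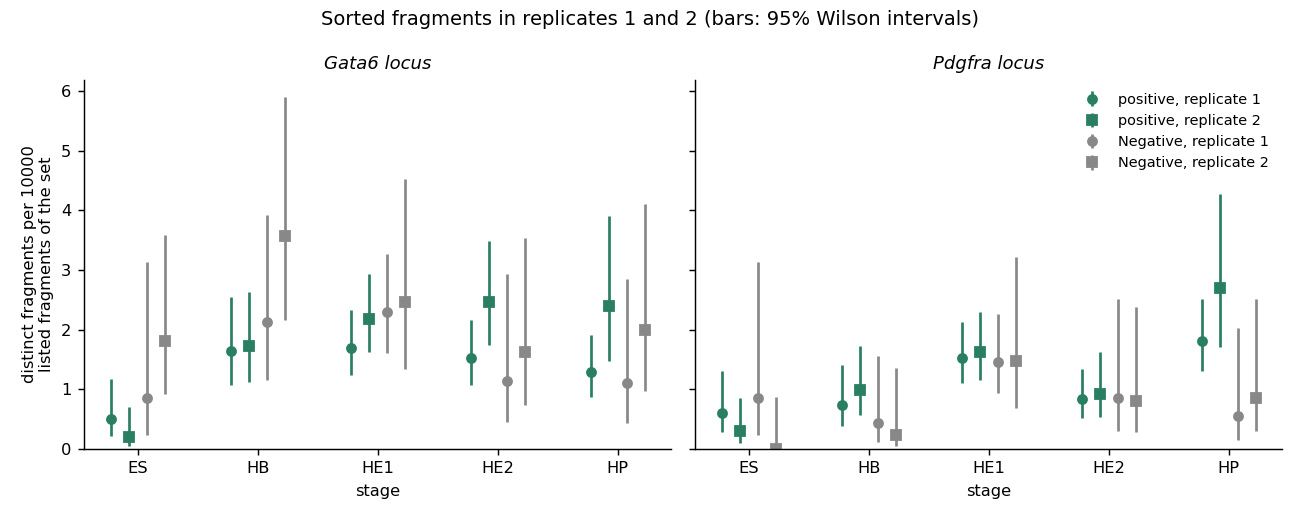
Distinct fragments of the Gata6 and Pdgfra loci per 10000 listed fragments in positive (green) and Negative (grey) sets of replicates 1 (circles) and 2 (squares), with bars for 95% Wilson intervals. Gata6 positive sets rise from 0.501 and 0.194 at ES to 1.64 and 1.72 at HB, with the Negative sets at 2.13 and 3.58 at HB, of which the latter falls to 1.19 with near-identical fragments counted once.

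No site of the 10 loci was called in the fits over merged sites, in which 0% of 22797 sites were called for positive against Negative, 0% of 20805 for high against low and 2 of 29702 (0.00673%) for HB against the other stages. The site with the lowest p, chr14:63247229-63248138 in an intron of Gata4 at 24.0 kb downstream, was higher at HB by 0.42 (SE 0.12, adjusted p = 0.430 by limma). It rested on 4 fragments in positive sets of HB, and with 0.25 added in place of 1 the difference was 0.95 (adjusted p = 0.0430 by limma), where 0.168% of sites were called higher.

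The Gata6 and Pdgfra loci stood apart in how exactly their sorted fragments matched the plasmid. Of their distinct sorted fragments 62.3% and 57.6% were identical to a plasmid fragment, against a median of 80.7% over the 17103 loci with at least as many fragments as the smallest of the 10. These shares lay at the 0.175th and 0.0468th percentile, while the other 8 loci ranged from 77.9% to 92.2%. With starts and ends allowed to differ by 5 bp, 95.5% and 94.8% had a plasmid match, within the 94.6% to 99.0% of the other 8. Near-identical fragments were common at both loci, with 156 groups for 220 fragments at Gata6 and 106 for 172 at Pdgfra, and the largest group held 21 and 15 fragments. At their promoter sites 55.1% of 136 and 50.8% of 128 fragments were identical to a plasmid fragment. Whether PCR, sequencing or trimming made these variants was not tested.

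The distal sites of the 10 loci were searched for short motifs in their central 300 bases on both strands, and overlaps between motifs were allowed. The E-box letters CANNTG were found in 82.0% of the 133 sites, against 81.2% of all 58902 distal sites, and AGATAA in 17.3% against 18.2%. AGGTGT was found in 11.3% against 14.8%, the TEAD letters GGAATG in 18.05% against 19.6%, the ETS letters CCGGAA in 6.02% against 5.55% and the forkhead letters TGTTTAC in 6.02% against 4.14%. The AP-1 letters TGANTCA were found in 10 sites (7.52%), against 16.1% of all sites, and the POU letters ATGCAAAT in none of the 133, against 1.63%. Member sites were wider, with a median of 370 against 297 bases, and their median GC content was 53.3% against 50.7%. A match is a description of the letters and not a bound site, and the shares were not tested.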

How the data were processed

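Sorted, plasmid and control fragment lists were analysed. Per the study's methods, the authors joined an earlier and a later sequencing, aligned reads (TrimGalore, then Bowtie2 on mm10), kept high-quality pairs, removed duplicates, filtered fragments against control, plasmid and open chromatin lists, and split them at 1.5 kb from transcription starts. The deposited sorted lists hold intervals only. The deposited plasmid and control lists add a count of reads per fragment, not normalized. Sorted starts were taken as counted from 1, and plasmid and control starts were moved by 1 bp to the scale of the sorted lists.

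The fitted value was log2 of distinct fragments per 10000 listed fragments with 1 added, for every protein-coding locus or merged site listed in 0.2 or more of the sets (4 of 10 within a stage). It was tested by limma 3.58.1 (lmFit, eBayes with trend) in R 4.3.3, with Benjamini-Hochberg adjustment over all loci or sites. On simulated data, 182 of 200 loci changed 4-fold were called between positive and Negative sets over all stages. For HB against the other stages 119 of 200 were called. Between positive and Negative sets of HE1 alone, 61 of the 197 changed loci that were tested were called. Without a change, none were called. The simulation drew independent counts without near-identical fragments and changed only loci above a minimum number of fragments, so real data can give fewer calls. Tables were made with Python 3.11.15 and pandas 2.3.3. Same-numbered sets deviated together, with all 5 correlations above 0.1, in the step from ES to HB alone.

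Named were all 10 genes, and in each locus the distal site in the most positive sets and the promoter site at the gene's own start, with exceptions stated. Members, lists and rules were chosen with earlier results of these data known. The alternatives were a 50 kb window, distal fragments only, 0.25 added, a lower filter, array weights, a replicate block, plasmid-identical fragments only, replicates or libraries left out, and other gates, and after seeing the data, near-identical fragments counted once.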

Additional observations from a re-analysis of the deposited data

Results flagged for a closer look

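Of 100 groups of 5 replicate sets, made of 10 loci at 5 stages in positive and Negative sets, 9 held a set that lay far from the other 4 on the log2 scale, where chance gives about 1 in 20 for continuous values. Groups with several values at 0 or of 1 fragment need not follow that rate. In 8 of the 9 the far set was the highest. Hand1 at HB stood at 5.42 fragments per 10000 in the positive set of replicate 5, from 1 fragment of 1846. Tbx20 at HE1 stood at 3.77 in the positive set of replicate 4 (5 of 13261), and Isl1 at ES at 3.89 in that of replicate 4 (2 of 5138). Mixl1 at ES was lowest, at 0, in the positive set of replicate 5 (0 of 2181).

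Among Negative sets, Tbx20 at HB stood at 0.715 in replicate 2 (3 of 41956) with the other replicates at 0, and at HP at 5.08 in replicate 3 (1 of 1969). Isl1 stood at 6.06 at HE1 (1 of 1651) and at 6.55 at HE2 (1 of 1528), each in replicate 4. Eomes at HB stood at 7.81 in replicate 3, from 4 of 5121 fragments. Most of these values rest on 1 to 5 fragments.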

How the results depend on the processing

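A locus gave few fragments in replicates 3 to 5, where a single fragment is worth more per 10000 than many in replicates 1 and 2, and the part of depth in the calls was not tested. Over 2049 fits of a member under an alternative, 6 gave a call, all for Gata6 from ES to HB (4) or Pdgfra from HE2 to HP (2), and 372 had the other sign. For the smallest p, the Gata4 site at 24.0 kb downstream, 0.25 added gave a call (0.95, adjusted p = 0.0430 by limma). Pdgfra from HE2 to HP turned to -0.053 with distal fragments only, -0.16 with 0.25 added, -0.066 with plasmid-identical fragments, -0.11 with near-identical fragments counted once, and to -0.14 and -0.22 without replicate 1 and without replicate 2, with a range of -0.22 to 0.39 over the replicates left out. Gata4 from HE1 to HE2 turned to 0.33 with distal fragments only. The causes were not tested. With starts as deposited, 1.61% of member fragments were identical to a plasmid fragment. The plasmid density of each locus moved by less than the spread over lists when pSKB alone was used.

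The count of loci called over the genome changed with the setting. In the replicate block it was 2 from HE2 to HP in place of 4, and the block changed no call of a member. It was also 2 there without the 4 HE1 libraries, and 0 with plasmid-identical fragments. A 50 kb window gave 8 from ES to HB, 6 from HB to HE1, 11 from HE2 to HP and 6 for HB against the other stages, and distal fragments only gave 1, 2, 2 from HE1 to HE2, and 51 for HB against the others. Adding 0.25 gave 1 for positive against Negative over all stages.

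Array weights gave 920 for the ES to HB step, 1129 for HB to HE1, 137 for HE1 to HE2, 561 for HE2 to HP, 785 for HB against the others and 111 for high against low, and for positive against Negative 39 over all stages, 23 at HB, 7 at HE2 and 24 at HP. Replicates 1 and 2 alone gave 626 from ES to HB, 469 from HB to HE1, 418 from HE2 to HP and 454 for HB against the others. With near-identical fragments counted once as well, array weights gave 903, 1172, 79, 555, 784 and 99 in the same order, with 56, 19, 10 and 22, and replicates 1 and 2 gave 632, 481, 402 and 461, with 2 for positive against Negative over all stages. Leaving out 1 replicate in turn gave 0 to 1 for positive against Negative at ES, HB, HE2 and HP and 0 (without replicate 2, 3 or 4) to 5 (without replicate 5) from HE2 to HP.

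Of sites, array weights called 536 for positive against Negative, 479 for HB against the others and 508 for high against low, or 419, 559 and 438 with near-identical fragments counted once. For HB against the others, the count was 3231 in replicates 1 and 2 alone, 3352 with near-identical fragments counted once there, 51 with 0.25 added, 131 with the lower filter, 1 with distal fragments only, 0 with plasmid-identical fragments or without the 4 HE1 libraries, and 0 to 6 without 1 replicate.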
